A study of Zea mays with 217 samples.

Results

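The bHLH transcription factors (TFs) bHLH47, bHLH91, bHLH108, bHLH129, bHLH136 and bHLH145 of the maize leaf were examined for the genes listed as their targets, for how far their target lists diverge, and for the TFs of other families whose lists come closest to theirs. They make up 6 of the 104 TFs profiled by ChIP-seq and 6 of the 11 that the study assigns to the bHLH family. These 6 were chosen by family and selected on target overlap, since they are what remains of the family once bHLH43, bHLH118, bHLH162, bHLH163 and bHLH172, whose target lists overlap strongly, are set aside. The Jaccard index within the family is therefore part of the choice and is given here as a description, with no test.

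The study asked how TFs of the developing maize leaf are wired to their genes. Each TF was expressed from a plasmid in leaf protoplasts, which are leaf cells stripped of their walls, of 1 genotype, the inbred B73, and the TF-DNA complexes were pulled down on streptavidin beads. The seedlings were between 1 and 2 weeks old per the sample labels, and no group of the series received a treatment beyond the polyethylene glycol transformation that all groups share. Binding was thus read in freed mesophyll cells that carry an added, tagged copy of the TF, and not at its native level. The series has 217 libraries, of which 12 belong to the 6 bHLH TFs, with 2 libraries for each. The deposited table holds, per TF and listed gene, 1 p-value from TIP (target identification from profiles). This model learns how the peaks of a TF are spread around gene starts and scores every gene against that shape. Replicates are pooled in it and depth is not given, so no value below carries a replicate error, an interval or a test, and every comparison is between target lists.

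Basic helix-loop-helix factors are among the largest TF families of plants. The helix-loop-helix part lets the proteins pair as dimers, and the basic part in front of it contacts DNA, most often at an E-box, the short palindrome-like motif CANNTG. In Arabidopsis, family members act in light signalling, in the response to the hormone jasmonate, in the making of stomata, in iron uptake and in anthocyanin synthesis. Several of them work by pairing with partners of other families, such as R2R3 MYB factors or the ZIM-domain (JAZ) repressors of jasmonate signalling, which bind bHLH proteins of the MYC type.

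The study cloned bHLH47 and bHLH91 itself, and its primers mark the ends of the coding sequence that was placed in the plasmid. They are shown because they define the proteins whose binding is described for the factor with the longest and for the factor with the shortest target list of the 6. Only the bases that match the maize gene are printed, 5′ to 3′, and capitals mark the ATG start codon at the head of each forward primer, while a reverse primer carries no capitals.
bHLH47 forward: ATGtctcgtgtgaatggagtc
bHLH47 reverse: aactctatgtaaagttggtggttgc
bHLH91 forward: ATGaacctgtggacggacga
bHLH91 reverse: cctgcccatgacagacccgg
The forward primers therefore start at the first codon of bHLH47 (Zm00001d034298) and of bHLH91 (Zm00001d047017). The other 4 genes are bHLH108 (Zm00001d025141), bHLH129 (Zm00001d014995), bHLH136 (Zm00001d021019) and bHLH145 (Zm00001d031717), named by their identifiers in B73 RefGen_v4.

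Of the 6 factors, bHLH91 had almost no listed targets and the other 5 had lists of ordinary length. bHLH47 listed 3077 target genes, which is 15.3% of the 20067 target genes of the whole network and place 22 among the 104 TFs. bHLH136 listed 2953 (14.7%, place 42), bHLH129 listed 2935 (14.6%, place 43), bHLH108 listed 2607 (13%, place 69) and bHLH145 listed 2413 (12%, place 80). bHLH91 listed 21 genes (0.105%), the lowest number of any TF. Whether this short list reflects binding, library quality or the number of peaks was not tested. Together the 6 factors listed 7242 different genes in 14006 entries. The median over all TFs was 2854.5 targets, so bHLH47, bHLH129 and bHLH136 lay above it and the other 3 below.

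The length of a list and the strength of its entries did not go together. bHLH145 had the second shortest list of the 6 but the most targets with a p of 0.001 or less, 1050 (43.5% of its list), which put it at place 8 of the 104 TFs. bHLH47 had 648 such targets (21.1%), bHLH108 had 647 (24.8%), bHLH136 had 606 (20.5%) and bHLH129 had 321 (10.9%, place 97). Over all TFs the median share was 28%. bHLH145 also kept 505 targets with a p of 1e-05 or less, against 42 for bHLH129, although bHLH129 had the longer list. The median p was 0.00202 for bHLH145 and 0.0163 for bHLH129, which puts bHLH129 at place 100 of 104 when the TFs are ordered from the smallest median p. In bHLH91, 17 of the 21 targets had a p of 0.001 or less and 16 had a p of 1e-05 or less. TIP scores each gene against the profile of the TF itself, so a p of one TF and a p of another are not on a common scale.

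**Figure D1:**
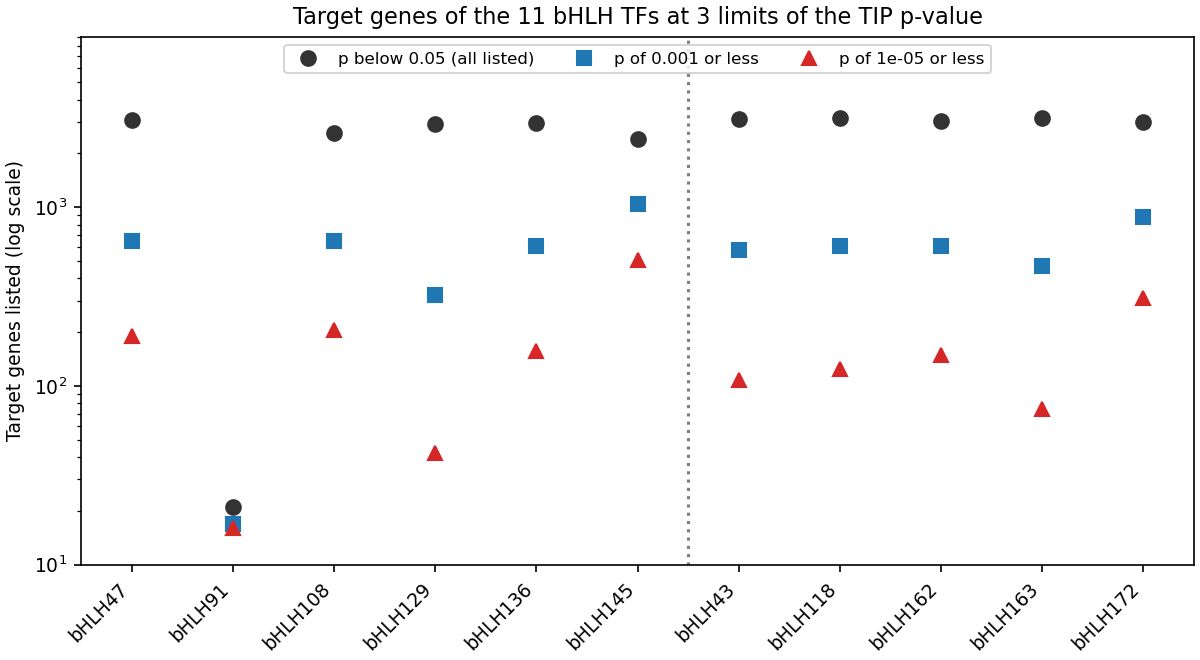
Number of target genes (y axis, log scale) of each of the 11 bHLH TFs (x axis) at 3 limits of the TIP p-value, with bHLH47 to bHLH145 left of the dotted line and the other 5 bHLH TFs right of it. Circles are all listed targets, squares those with a p of 0.001 or less and triangles those with a p of 1e-05 or less. bHLH91 stands alone at 21 targets, and bHLH145 has the most targets at both stricter limits (1050 and 505).

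The target lists of the 6 factors overlapped less with one another than those of the other 5 bHLH TFs, as the choice of the factors fixes. The Jaccard index, the number of shared targets divided by the number listed by either TF, had a median of 0.215 over their 15 pairs (lowest 0.00237, highest 0.370), 0.467 over the 10 pairs of the other 5 bHLH TFs (0.388 to 0.539) and 0.235 over all pairs of TFs in the series. Without bHLH91, whose short list keeps every index near 0, the median over 10 pairs was 0.253 (lowest 0.153), beside the 0.235 of all pairs.

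Within the 6, bHLH47 and bHLH136 were the most alike. They shared 1628 targets, 52.9% of the list of bHLH47 and 55.1% of that of bHLH136, with a Jaccard index of 0.370 that ranks 255 among all pairs of TFs. Of the 100 targets of bHLH47 with the smallest p, 99 were also listed by bHLH136, and in the other direction 83 of 100. Each of the other 5 bHLH TFs listed between 92 and 98 of the same 100 targets of bHLH47, so the 99 are not particular to this pair. bHLH47 and bHLH145 followed at 0.316 (1317 shared, 42.8% and 54.6% of the lists), then bHLH129 and bHLH136 at 0.315 (1410 shared, 48% and 47.7%) and bHLH47 and bHLH108 at 0.292 (1286 shared, 41.8% and 49.3%). bHLH47 took part in 3 of these 4 pairs.

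The least alike were bHLH129 and bHLH145 (0.153, 708 shared, 24.1% and 29.3% of the lists, rank 4242) and bHLH108 and bHLH129 (0.155, 745 shared, 28.6% and 25.4%, rank 4195). Only 34 of the 100 strongest targets of bHLH108 were listed by bHLH129, and 37 in the other direction. The other 4 pairs were bHLH136 and bHLH145 (0.254), bHLH47 and bHLH129 (0.252), bHLH108 and bHLH145 (0.234) and bHLH108 and bHLH136 (0.215). Where 2 factors shared targets, they did not order them alike. Spearman's rho of −log10 p, across the shared genes of a pair, ran from 0.0673 for the 708 genes of bHLH129 and bHLH145 to 0.323 for the 1628 genes of bHLH47 and bHLH136. This is a description across genes, which are not independent replicates and whose p-values come from 1 procedure for all TFs.

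**Figure D2:**
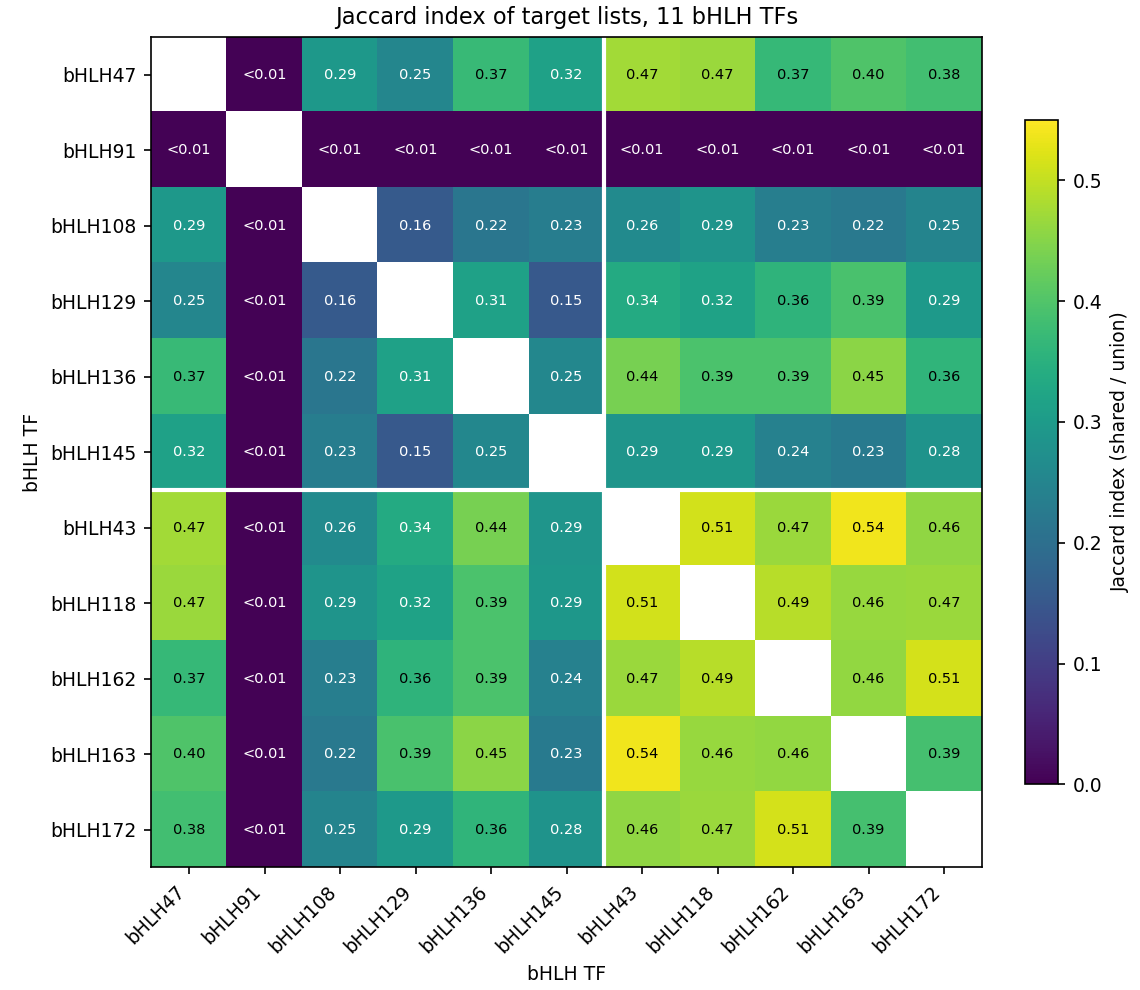
Jaccard index between the target lists of the 11 bHLH TFs, with the 6 described here above and left of the white lines and the other 5 below and right of them. Colour and number give the index (0 to 0.55), and the diagonal is left blank. bHLH91 is below 0.01 against all 10, bHLH47 and bHLH136 are nearer to some of the other 5 than to each other, and bHLH108 and bHLH145 are at most 0.32 against any bHLH TF.

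The split from the other 5 bHLH TFs was not sharp for 2 of the factors. bHLH47 had an index of 0.474 with bHLH43 and 0.467 with bHLH118 (ranks 11 and 15 of all pairs), and bHLH136 had 0.453 with bHLH163 and 0.438 with bHLH43, all within the range that the other 5 had among themselves. bHLH129 came to 0.392 with bHLH163, just inside that range. bHLH108 reached at most 0.285 with any of them and bHLH145 at most 0.291, in both cases with bHLH118. By this index bHLH47 and bHLH136 lay beside the other 5, and bHLH108 and bHLH145 lay away from them.

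Outside the family, the nearest TF differed from factor to factor, although ZIM28 was among the 3 nearest of both bHLH47 and bHLH145 and MYB31 among those of both bHLH129 and bHLH136. bHLH47 was closest to 3 ZIM factors, ZIM18 (Jaccard index 0.433, 1867 shared targets, 60.7% of the list of bHLH47 and 60.1% of that of ZIM18), ZIM27 (0.423, 1827 shared) and ZIM28 (0.401, 1618 shared). ZIM proteins are co-repressors that bind DNA through other factors, among them bHLH proteins of the MYC type in Arabidopsis. Over the 6 ZIM factors the index of bHLH47 averaged 0.382, the highest mean of the 12 families with at least 3 TFs, and its mean over the other bHLH TFs was 0.333 with bHLH91 and 0.369 without it.

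bHLH145 was also nearest to ZIM factors, and for it the nearest of all 103 other TFs was no bHLH factor but ZIM16 (0.324, 1286 shared, 53.3% of the list of bHLH145 and 45.3% of that of ZIM16). ZIM28 followed outside the family (0.302, 1157 shared) and then MAB16, a TF with no family assigned (0.286, 1114 shared). Its mean index over the ZIM family was 0.289, against 0.229 over the other bHLH TFs, or 0.254 without bHLH91. All 6 ZIM factors had an index of at least 0.268 with bHLH145.

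For bHLH108, too, the ZIM family had the highest mean index (0.279), but no ZIM factor was among its 3 nearest. Its 3 nearest TFs of all were MYBR41, a MYB-related factor (0.413, 1690 shared, 64.8% of the list of bHLH108 and 53.2% of that of MYBR41), and the homeodomain factors HB70 (0.402, 1663 shared) and HB84 (0.378, 1395 shared). The next TF, ZIM16, was at 0.316, and its nearest bHLH factor, bHLH47, took place 10 at 0.292. The genes it shared with them included more that few TFs list. With MYBR41 it shared 105 genes that at most 10 of the 104 TFs list, and with HB70 it shared 106. Against these stood 10 with bHLH47 and 40 with bHLH145, the most with any bHLH TF. COL2, with an index of 0.274, shared 57. Spearman's rho of −log10 p across the shared genes was 0.391 with MYBR41 and 0.386 with HB70, against 0.206 with bHLH47.

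bHLH129 and bHLH136 were nearest to bHLH163. Outside the family, bHLH129 came next to EREB54 (0.319, 1271 shared, 43.3% of the list of bHLH129 and 54.8% of that of EREB54) and EREB147 (0.318, 1344 shared), which belong to the ethylene response factor family, and to MYB31 (0.305, 1400 shared). bHLH136 came next to MYB31 (0.378, 1647 shared, 55.8% and 53.9%), the basic leucine zipper factor bZIP9 (0.359, 1567 shared) and MYB38 (0.357, 1651 shared). For both, 6 of the 10 nearest TFs were bHLH factors, against 3 for bHLH47, 4 for bHLH145 and 1 for bHLH108.

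For bHLH91 the index says mostly how short the other list is. It was highest with MYBR64 (0.0105), which itself lists 462 genes and shared 5, then with ZIM1 (0.0105, 16 shared) and MYB62 (0.00817, 10 shared). By number of shared genes ZIM1 stood first of the 103 TFs with 16 of the 21 (76.2%), although ZIM1 has 1526 targets and place 97 by list length. HAG7 followed with 13 of the 21 from a list of 3072.

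Which TF was nearest outside the family depended on the measure. For bHLH129, MYB88 replaced EREB54 at both stricter limits of p (0.144 at 0.001 or less) and with equal lists (0.151), and EREB54 stood at place 15 at 1e-05 or less, while EREB147 came first with the cosine (0.531). For bHLH136, MYB38 replaced MYB31 in the same 3 settings (0.227 at 0.001 or less), with MYB31 at place 30 at 1e-05 or less, and MYBR64 came first with the overlap coefficient (0.677). MYBR41 stayed nearest to bHLH108 with a p of 1e-05 or less, with the 400 smallest p of every TF, with the overlap coefficient (shared targets as a share of the shorter list), with the cosine of −log10 p over all genes and without the 216 genes that the most TFs list, and HB84 took its place with a p of 0.001 or less. For bHLH145 the nearest was ZIM1 (0.247) with a p of 0.001 or less, ZIM1 again with equal lists (0.214) and ZIM28 with the cosine (0.453), while with the overlap coefficient MYBR64, with its short list, came first at 0.6. For bHLH47 it was ZIM18 at a p of 0.001 or less and with the cosine, and the ELF3 factor PCO135758 with equal lists (0.28) and at a p of 1e-05 or less (0.207), and MYBR64 with the overlap coefficient (0.801). For bHLH91, MYBR64 fell to place 93 of 93 at a p of 1e-05 or less, where WRKY82 came first (0.028). MYBR64 stood at place 90 with the cosine, where C3H40 came first (0.192), and at place 86 with the overlap coefficient, where ZIM1 came first (0.762). The cosine gives most weight to entries with a p of 0, of which bHLH91 has 6 and bHLH108 has 3.

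**Figure D3:**
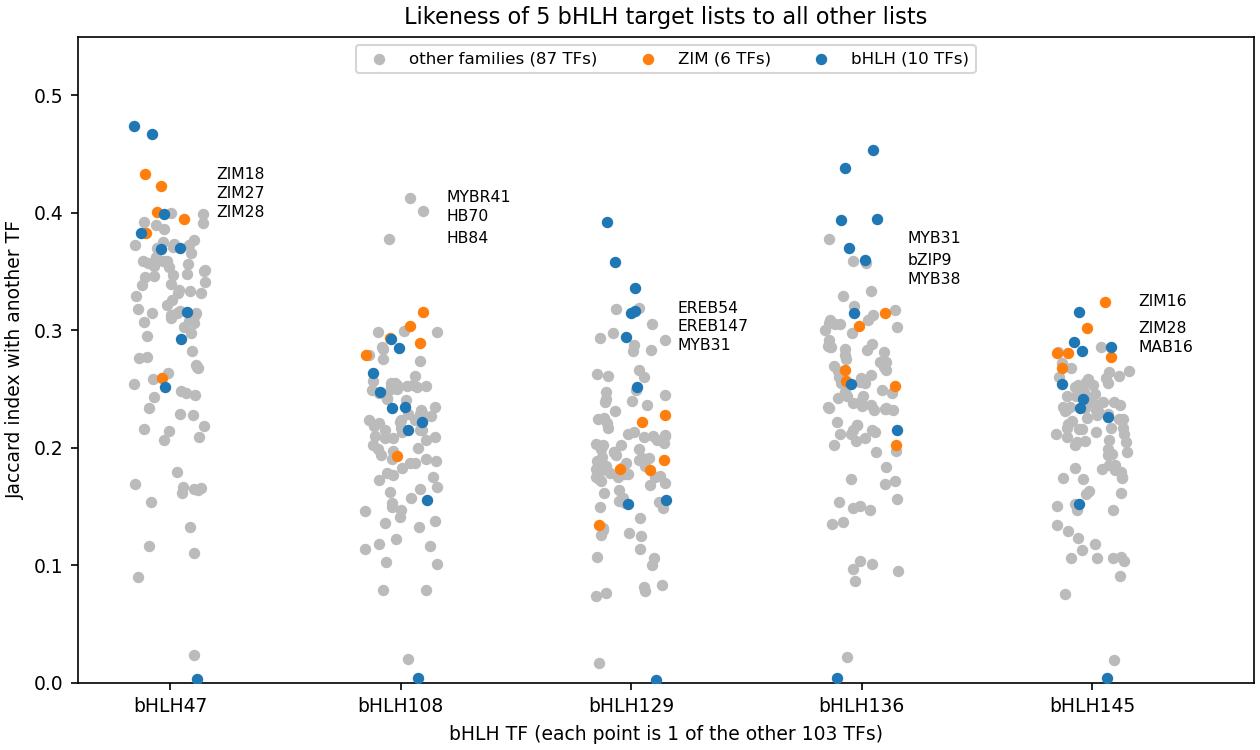
Jaccard index (y axis) of bHLH47, bHLH108, bHLH129, bHLH136 and bHLH145 (x axis) with each of the other 103 TFs, 1 point per TF, spread sideways for legibility. Blue points are bHLH TFs, orange points ZIM TFs and grey points all other families, and the 3 nearest TFs outside the family are named beside each column. bHLH91 is left out, its highest index being 0.0105. In bHLH108 the 3 named TFs stand above all others, and in bHLH145 the top point is ZIM16 at 0.324.

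Each factor shared most of its list with at least 1 of the others, and the share listed by none of them was 17.5% for bHLH47, 19.8% for bHLH136, 24.9% for bHLH145, 32.4% for bHLH108, 33.3% for bHLH91 and 35.9% for bHLH129. Of the 7242 genes, 3632 (50.2%) were listed by 1 factor, 1639 by 2, 1061 by 3, 640 by 4, 267 by 5 and 3 by all 6. Genes listed by more of the factors were also listed by more TFs of the whole series. The in-degree, the number of the 104 TFs that list a gene, had a median of 11 for genes of 1 factor, 26 for 2, 44 for 3, 61 for 4, 79 for 5 and 87 for all 6. Over all 20067 target genes it was 5. A count that includes the 6 factors themselves must rise with their number, so the trend is a description.

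The 3 genes listed by all 6 were Zm00001d001832, Zm00001d041381 and Zm00001d004664. Zm00001d001832 is listed by 98 of the 104 TFs, with a p of 0 from bHLH91, 1.19e-19 from bHLH145 and 9.64e-08 from bHLH47, and a largest p of 0.00428 from bHLH129. Zm00001d041381 is listed by 87 TFs, again with the smallest p from bHLH91 (8.98e-40) and bHLH145 (1.15e-21). Zm00001d004664 is listed by 39 TFs and by 7 of the 11 bHLH TFs, so only 1 of the other 5 bHLH TFs lists it. Its p was 1.13e-06 for bHLH91 and between 0.00763 and 0.0448 for the other 5 factors.

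How many targets no other bHLH TF lists depends on the overlap by which the factors were chosen, so these numbers are a description. bHLH108 had 630 such targets (24.2% of its list), bHLH129 569 (19.4%), bHLH145 424 (17.6%), bHLH136 287 (9.72%), bHLH47 255 (8.29%) and bHLH91 6. Most were weak entries. A p of 0.001 or less was found for 76 in bHLH108, 73 in bHLH145, 13 in bHLH129, 12 in bHLH136, 2 in bHLH47 and all 6 in bHLH91. Counted within each list, the 100 targets with the smallest p held 7 such genes in bHLH108, 1 in bHLH129 and 0 in bHLH47, bHLH136 and bHLH145.

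Few of these genes were free of TFs of other families, and the TFs that list them differed from factor to factor. Of the 630 genes of bHLH108, MYBR41 listed 251 (39.8%), HB70 250 and HB84 181, against a median of 67 (10.6%) over the 93 TFs of other families. For the 569 genes of bHLH129 the leading TFs were 3 ethylene response factors, EREB97 (118, 20.7%), EREB98 (111) and EREB209 (98), against a median of 33. For the 287 genes of bHLH136 they were 3 GLK factors, GLK11 (51, 17.8%), GLK9 (45) and GLK53 (41), against a median of 23. For the 424 genes of bHLH145 they were NAC109 (74, 17.5%), ZIM16 (68) and EREB71 (65), against a median of 38, and for the 255 of bHLH47 NAC23 (75, 29.4%), SIG6 (67) and MYB37 (66), against a median of 41. These counts were looked up after the lists had been seen, and the lengths of the other lists were not equalised for them.

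The lists also differed in how common their targets were. The median in-degree of the targets was 44 for bHLH47 (place 12 of 104), 36 for bHLH136, 35 for bHLH145, 34 for bHLH108, 34 for bHLH91 and 26 for bHLH129 (place 92), and the median of this value over all TFs was 39. bHLH129 had 407 targets (13.9%) that at most 5 TFs list, and bHLH47 had 83 (2.7%). The median of this share over all TFs was 6.45%, and 52% of all target genes have such an in-degree. Targets listed by no other TF of the series numbered 68 for bHLH129, 54 for bHLH145, 48 for bHLH136, 45 for bHLH108, 10 for bHLH47 and 1 for bHLH91. In the whole series 4496 of the 20067 target genes are listed by a single TF, so such genes are not particular to these factors.

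The strongest entries were mostly shared genes. For bHLH47 they were Zm00001d039131 (p of 3.69e-23), Zm00001d038998 (6.02e-22) and Zm00001d036768 (2.08e-17), and 9 to 10 of the 11 bHLH TFs list each of them. bHLH129 had its smallest p at Zm00001d022154 (5.52e-15), Zm00001d027596 (6.51e-11) and Zm00001d026252 (1.98e-10), genes that between 95 and 98 of the 104 TFs list. bHLH136 led with Zm00001d038476 (4.43e-15), which 26 TFs and 7 bHLH TFs list, then Zm00001d020834 (4.91e-14), itself a bHLH gene in the study's hub list, and the gene of ZIM27 (1.53e-13).

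bHLH108 and bHLH145 had some less common genes at the top. In bHLH108 a p of 0 was given to 3 genes, Zm00001d047955 (in-degree 43, 3 bHLH TFs), Zm00001d037756 (58, 9 bHLH TFs) and Zm00001d010304 (18, no other bHLH TF). bHLH145 led with Zm00001d021627 (8.55e-37, in-degree 89), Zm00001d044765 (4.2e-35, in-degree 10) and Zm00001d048263 (2.05e-34, in-degree 53). Zm00001d044765 is listed by 1 other bHLH TF, bHLH108.

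Genes that a single TF of the series lists were found for every factor, and their strength differed. For bHLH108 the strongest were Zm00001d047956 (1.85e-17), Zm00001d006401 (1.23e-06) and Zm00001d042030 (2.16e-06). For bHLH145 they were Zm00001d041981 (9.07e-08), Zm00001d016948 (2.84e-07) and Zm00001d019348 (1.92e-05). By place within the list, these named genes stood among the strongest 5.72% in bHLH108 and the strongest 23% in bHLH145.

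The genes of this kind named below, those with the smallest p, stood among the strongest 19.2% of the list in bHLH136. In bHLH129 and bHLH47 they stood among the strongest 27.3% and 59.2%. They were chosen from 48 such genes in bHLH136, 68 in bHLH129 and 10 in bHLH47, so these places do not describe the rest. bHLH136 had Zm00001d013400 (3.79e-04), Zm00001d040113 (4.51e-04) and Zm00001d013593 (8.21e-04). bHLH129 had Zm00001d018078 (0.0041), Zm00001d053395 (0.00428) and Zm00001d044868 (0.00577), and bHLH47 had Zm00001d008890 (0.00736), Zm00001d023698 (0.00822) and Zm00001d037590 (0.0171). The single such gene of bHLH91 was Zm00001d030030 (1.24e-22).

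The 21 targets of bHLH91 ranged from genes that nearly every TF lists to 1 that no other TF lists. A p of 0 was given to 6 of them, Zm00001d038050 (in-degree 94), Zm00001d038049 (92), Zm00001d024676 (47), Zm00001d020696 (32), Zm00001d001832 (98) and Zm00001d001831 (74). The next were Zm00001d024675 (1.84e-130, in-degree 9), Zm00001d030028 (6.75e-73, in-degree 13) and Zm00001d041381 (8.98e-40, in-degree 87). Of the 21 genes, 7 had an in-degree of 70 or more, 8 an in-degree of 16 or less and 6 lay between. None of the 6 entries with a p of 0 was among the 8 with the low in-degrees.

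Further down the list stood Zm00001d030030 (1.24e-22), Zm00001d041380 (4.88e-20), Zm00001d042643 (7.55e-14), Zm00001d001833 (1.41e-12), Zm00001d035646 (1.35e-11), Zm00001d001834 (1.1e-09) and Zm00001d004664 (1.13e-06). The weakest 5 were Zm00001d020251 (2.17e-04), Zm00001d018064 (0.00197), Zm00001d035647 (0.00213), Zm00001d024522 (0.00323) and Zm00001d010700 (0.0125). Many of these identifiers are neighbours in number, such as Zm00001d001831 to Zm00001d001834. The files pair none of the 21 with a gene name.

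bHLH91 shared 11 of its 21 targets with bHLH47 and with bHLH136, 10 with bHLH108 and with bHLH145 and 7 with bHLH129. No other of the 6 factors listed 7 of the 21, and no other bHLH TF listed 6. Of these 6, Zm00001d020696 (p of 0, in-degree 32), Zm00001d024675 and Zm00001d030028 were the strongest, and ZIM1 listed 4 of the 6. At the 16 genes it shared with bHLH91, ZIM1 had ranks between 40 and 1452 in its own list of 1526 (median 502.5), and 4 of them were among its 100 smallest p. Its p was 4.36e-32 at Zm00001d024522 and 5.3e-27 at Zm00001d041381, against 0.00323 and 8.98e-40 for bHLH91, so the genes that were strong for ZIM1 were not always strong for bHLH91.

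**Figure D4:**
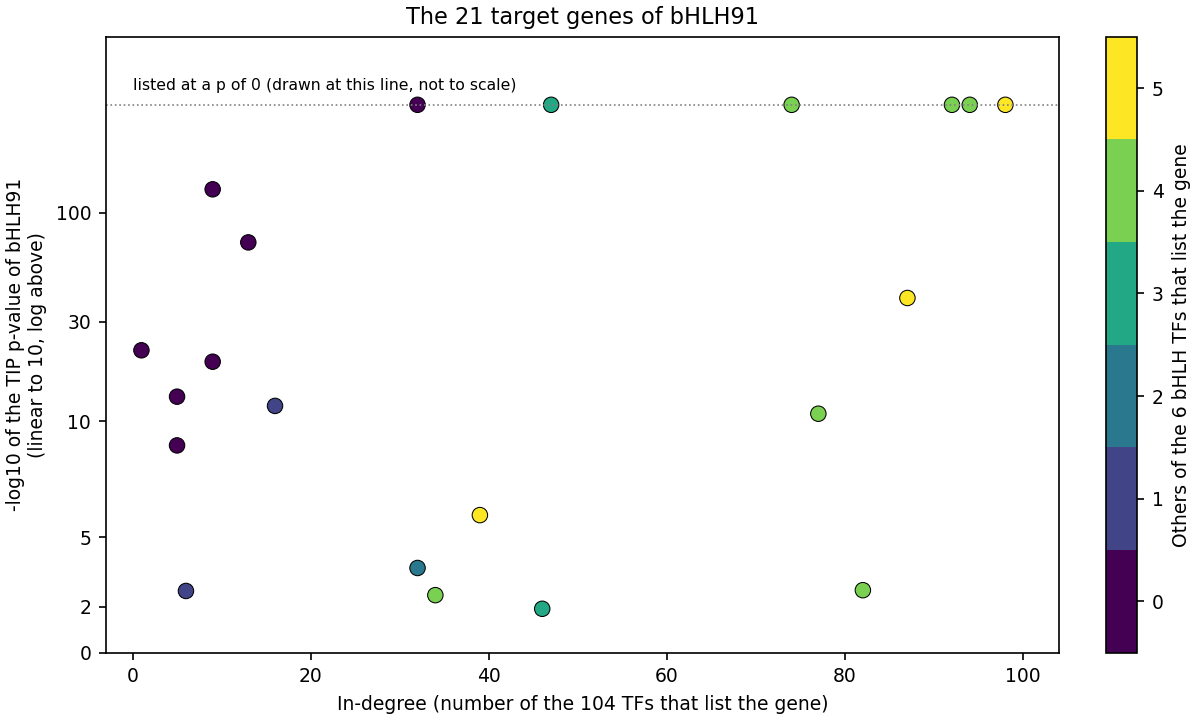
The 21 targets of bHLH91, each a point, by the number of the 104 TFs that list the gene (x axis) and by −log10 of the TIP p-value of bHLH91 (y axis, linear to 10 and logarithmic above). Colour gives how many of the other 5 described factors list the gene. The 6 genes with a p of 0 are drawn on the dotted line, and of the 8 genes with an in-degree of 16 or less, 6 are listed by none of the other 5.

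Genes of TFs were common targets of the factors with long lists. bHLH47 listed 38 of the 104 genes of profiled TFs (36.5%, against 15.3% of all target genes), bHLH108 listed 35 (33.7%, against 13%), bHLH145 listed 33 (31.7%, against 12%), bHLH136 listed 31 (29.8%, against 14.7%) and bHLH129 listed 20 (19.2%, against 14.6%). bHLH91 listed none. Over all TFs the median was 30, so high shares were usual in the series, and bHLH129 with place 91 and bHLH91 with place 103 lay well below it. The genes of profiled TFs had a median in-degree of 15.5. Entries with a p of 0.001 or less numbered 23 for bHLH145, 19 for bHLH47, 18 for bHLH108, 15 for bHLH136 and 5 for bHLH129. None of the 6 listed its own gene, and peaks at a TF's own locus had been taken out upstream, since plasmid DNA maps there.

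By family, the counts varied among the factors. Of the 14 EREB genes, of which a TF of the series listed a median of 8, bHLH47 and bHLH108 each listed 11, bHLH136 and bHLH145 each 9 and bHLH129 6. The 6 ZIM genes were all listed by bHLH108 and by bHLH145, while bHLH136 listed 5, bHLH47 4 and bHLH129 2, beside a median of 3 over all TFs. All 3 NAC genes, also the median over all TFs, were listed by bHLH47 and bHLH145 and none by bHLH108. The 6 bZIP genes were listed by none of the factors, the median over all TFs being 0. The 7 GLK genes were listed by bHLH129 (2) and bHLH136 (1) only, beside a median of 1.

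Among the factors with long lists, 8 genes of profiled TFs were listed by all 5. They were EREB97, EREB198, EREB109, EREB209, ZIM27, ZIM28, MYB4 and bHLH91, with in-degrees between 56 and 95. ZIM27 had a p of 1.01e-24 for bHLH145, 1.53e-13 for bHLH136, 3.89e-08 for bHLH47, 2.08e-04 for bHLH108 and 0.00201 for bHLH129. EREB97, a gene listed by 95 TFs, had its smallest p in bHLH47 (2.04e-11), and EREB209 in bHLH145 (7.49e-12). At MYB4 no factor went below 1.14e-04.

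The strongest TF genes of each factor were as follows. bHLH108 had a p of 7.84e-40 at ZIM1, its seventh smallest of 2607, then 1.81e-19 at GRAS23 and 6.46e-09 at EREB211. bHLH145 had 1.01e-24 at ZIM27, 5.19e-23 at bHLH91 and 3.04e-12 at NAC23. bHLH47 had 2.04e-11 at EREB97, 3.89e-08 at ZIM27 and 5.37e-08 at WRKY95. bHLH136 had 1.53e-13 at ZIM27, 3.17e-07 at GLK11 and 7.7e-07 at EREB198. GLK11 has an in-degree of 9 and is listed by none of the other factors described here, but by bHLH162, bHLH163 and bHLH172. bHLH129 had 7.31e-05 at NAC23, 7.54e-05 at EREB209 and 4.67e-04 at WRKY95. By place within the list, NAC23 stood among the strongest 3.51% in bHLH129 and the strongest 3.9% in bHLH145. A ZIM gene led or came second in bHLH47, bHLH108, bHLH136 and bHLH145. In bHLH47, bHLH136 and bHLH145 this was ZIM27, a common target that 90 of the 104 TFs list.

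**Figure D5:**
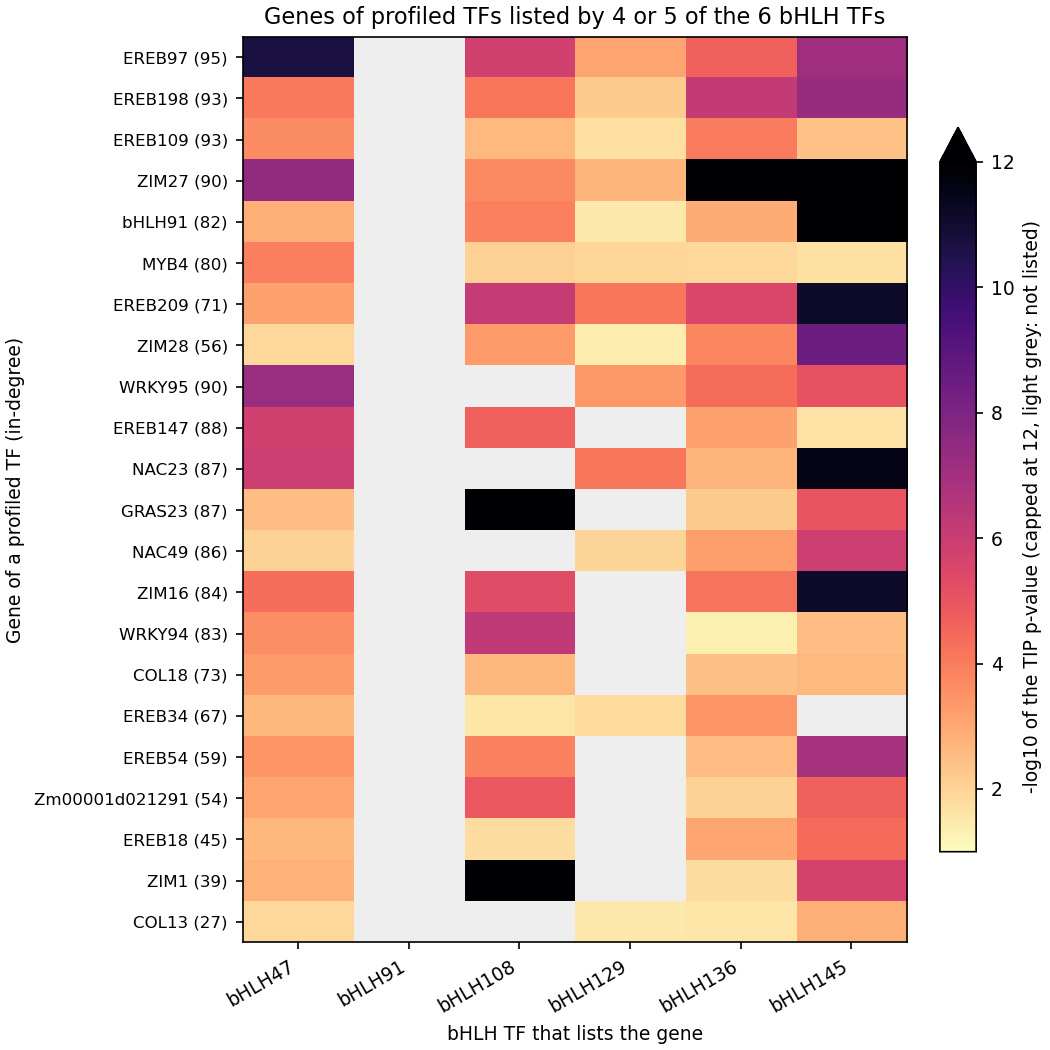
Genes of profiled TFs (rows, with the in-degree in brackets) that 4 or 5 of the 6 bHLH TFs (columns) list. Colour gives −log10 of the TIP p-value, capped at 12, and light grey means not listed. The column of bHLH91 is empty, bHLH129 is pale or grey, and the darkest cells include ZIM1 in bHLH108 (7.84e-40) and ZIM27 and bHLH91 in bHLH145 (1.01e-24 and 5.19e-23).

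Of the 11 bHLH genes, bHLH47 and bHLH108 listed 3 each, bHLH129, bHLH136 and bHLH145 listed 2 each, and bHLH91 listed 0. Each of the 5 longer lists holds between 12% and 15.3% of all target genes, so these small counts are not low. The gene of bHLH91 was listed by all other 10 bHLH TFs. Its p was 5.19e-23 for bHLH145, 1.23e-04 for bHLH108, 0.00122 for bHLH136, 0.00155 for bHLH47 and 0.0333 for bHLH129, and between 1.73e-05 and 0.0029 for the other 5. It is a common target, listed by 82 of the 104 TFs, against a median in-degree of 15.5 for the genes of profiled TFs. The factor with the fewest listed targets is thus itself encoded by a widely listed gene.

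The genes of the other 5 factors were listed far less. That of bHLH108 was listed by bHLH145 (1.61e-04), bHLH136 (0.0131) and, of the other 5, bHLH118 (0.0474). That of bHLH129 was listed in the family by bHLH47 alone (8.01e-04), that of bHLH136 by bHLH47 alone (0.0496) and that of bHLH47 by bHLH108 alone (0.00748), with in-degrees of 35, 42 and 21. The gene of bHLH145 was listed by no TF of the series, and so was that of bHLH162. Of the other 5 bHLH genes, bHLH43 was listed by bHLH108 (0.0136) and bHLH163 by bHLH129 (0.0476), while the genes of bHLH118 and bHLH172 were listed by none of the 6.

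The study's list of 206 hub genes was covered to a different extent. bHLH47 listed 203 of them (98.5%), bHLH136 196 (95.1%), bHLH129 and bHLH145 167 each (81.1%), bHLH108 155 (75.2%) and bHLH91 4. Hub genes are those that most TFs list, and over all TFs a median of 203 of the 216 genes with the highest in-degree were listed. bHLH108 stood at place 84 of 104 by this count with 162, and bHLH145 and bHLH129 at 78 and 79. The hub list assigns 2 genes to the bHLH family. Zm00001d020834 had a p of 2.07e-16 for bHLH145, 4.91e-14 for bHLH136, 6.25e-14 for bHLH47, 2.25e-08 for bHLH129 and 0.0302 for bHLH108. Zm00001d031441 was listed by 4 of the factors, with the smallest p in bHLH136 (8.05e-05), and not by bHLH145 or bHLH91.

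Of 8 genes of C4 photosynthesis, the carbon-concentrating cycle of the maize leaf, 4 were targets of at least 1 of the 6 factors. These were 8 of 48 possible entries (16.7%), against 11.6% of the possible entries over all target genes. CA1, which encodes a carbonic anhydrase and is listed by 96 TFs, was a target of bHLH47 (0.00171), bHLH129 (0.00179), bHLH136 (0.00195), bHLH108 (0.0232) and bHLH145 (0.0263). CA2 (0.00127) and PEPC (0.0455), the enzyme that first fixes carbon in the cycle, were listed by bHLH108 alone of the 6. PPDK, which regenerates its substrate, was listed by bHLH129 alone of the 6 (5.06e-04). Of all 11 bHLH TFs, however, 6 list PPDK (in-degree 34) and 3 list CA2 (in-degree 50). PEPC (in-degree 11) is listed by bHLH108 only. NADP-MDH, NADP-ME, RbCS1 and RbCS2 were listed by none. Among the 104 TFs ordered by the summed −log10 p over the 8 genes bHLH129 and bHLH108 took places 57 and 59 and the other 4 places 86 to 97.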

How the data were processed

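The ChIP-seq of 104 maize TFs in B73 leaf protoplasts comprises 217 libraries. Per the study's methods, the authors aligned reads to B73 RefGen_v4 with Bowtie2 (version 2.2.5), filtered with SAMtools (version 1.3) at a mapping quality of 10, called peaks with SPP against input at 1% IDR over pairs of replicates, removed blacklisted regions and each TF's own locus, and scored genes with TIP. The authors deposited 1 TIP p-value per TF and gene, pooled over replicates. The methods state a threshold of 5% FDR, and the listed p-values all lie below 0.05. For TIP, no version is named in the sources used here. Library depth is not in the table, so the precision it gives is unknown here.

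TFs were matched to their groups by the gene in the table's TF label, and named and grouped into families by the study's TF list. The members and lists described here were chosen with earlier results of these data known. Each listed pair counted as a target. Computed from the table were list lengths, shared targets, the Jaccard index, ranks among all TFs or pairs, in-degrees and lookups of TF, hub and C4 genes. No test was run, since replicates are pooled. Named were all members and their pairs, the 3 closest TFs outside the family, every target of a TF with under 50 targets, genes listed by all 6, per member the 3 smallest p of all targets, among genes no other TF lists and among TF genes, and the bHLH and C4 genes. TFs leading the targets that no other bHLH TF lists, ZIM1 and HAG7 beside bHLH91, and the bHLH hub genes were added after their values were seen. RefSeq gene names of NAM-5.0 matched 1 target identifier and, by older identifiers, 4 of the 6 members, so pathway gene lists, promoters and proteins were not analysed here, and no coordinates are given. Alternatives were p limits of 0.001 and 1e-05, equal lists of 400, the overlap coefficient, the cosine of −log10 p, leaving out the 216 genes whose in-degree reached the 99th percentile (84), and leaving out bHLH91. For the cosine and Spearman's rho, a p of 0 was set to the smallest p above 0 of all entries, 4.41e-290. Functions were tested on simulated lists of known overlap. Python 3.11.15, numpy 2.4.6, pandas 2.3.3 and matplotlib 3.10.9 were used.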

Additional observations from a re-analysis of the deposited data

How the results depend on the processing

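With only entries at a p of 0.001 or less, the median list length over the 6 factors was 626.5 instead of 2771, 11 genes instead of 270 were listed by at least 5 factors, entries at TF genes numbered 80 instead of 157 and entries at C4 genes 1 instead of 8. At 1e-05 or less these values were 173.5, 0, 34 and 0. Without bHLH91, 264 genes were listed by all 5 others. The median Jaccard index over the pairs, 0.215 in full, was 0.101 at 0.001, 0.0357 at 1e-05, 0.11 with equal lists of 400 (10 pairs, bHLH91 being too short), 0.191 without the genes of highest in-degree and 0.253 without bHLH91, while the overlap coefficient had a median of 0.476 and the cosine 0.137. bHLH47 and bHLH136 were the most alike pair in all 7 settings that compare the 10 pairs without bHLH91, and the least alike was bHLH108 with bHLH129 in 5 of them and bHLH129 with bHLH145 in the other 2. The TF nearest outside the family was the same as with full lists for 2 of 6 factors at 0.001, 1 at 1e-05, 1 of 5 with equal lists, 2 with the overlap coefficient, 3 with the cosine and 5 without the genes of highest in-degree. The cause of these shifts was not tested.

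No paired analysis was possible because the table pools the replicates of each TF, and for the same reason no replicate was left out in turn. The planned comparison of the members' proteins was not run, as no protein table was at hand. A p of one TF cannot be set against that of another as an effect size, and genes above the limit of 0.05 are not in the table.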

Other observations

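Neighbouring identifier numbers recur in the list of bHLH91. For 12 of its 21 targets (57.1%) the gene with the next higher or lower number was also listed, place 4 of the 104 TFs, against a median of 41.6% over all TFs (lowest 14.9%, highest 63.2%). This share also depends on the length of a list, which was not equalised, so place and median are not like comparisons for bHLH91. The share was 50.7% for bHLH136, 44.9% for bHLH129, 40.3% for bHLH47, 33.4% for bHLH145 and 31.5% for bHLH108, with bHLH145 and bHLH108 at places 88 and 93. Among the pairs of bHLH91 are Zm00001d038049 and Zm00001d038050, both with a p of 0, and Zm00001d024675 and Zm00001d024676. Whether such genes lie side by side was not tested, as no coordinates of the build were used.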
